A study of Mus musculus with 12 samples.

Results

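The collagen chain genes of the mouse brainstem were examined at P15 after repeated neonatal morphine exposure. They were chosen by symbol alone, as every gene named Col, a type number, a, and a chain number, which gave 44 of the 55418 genes in the count table. By type, 11 encode fibrillar chains, 6 type IV basement membrane chains, 6 type VI chains, 9 fibril-associated chains, 2 multiplexins, 3 short-chain network chains, 4 transmembrane collagens, and 3 other chains (Col7a1, Col26a1, and Col28a1). RNA was measured in outbred CFW mice, 1 library per mouse, from 6 mice given saline and 6 given morphine, with 3 of each sex per treatment. Pups were injected subcutaneously 2 times a day with saline or morphine sulfate from the first postnatal day until the day before tissue collection, both treatments were given within each litter, and the tissue (medulla and pons) was taken during spontaneous withdrawal on the morning after the last injection. No label gives the dam, so littermates cannot be identified.

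The libraries held 27850565 to 48097947 counts on genes. The labels give brainstem, and the deposited extraction text gives spinal cords. The summed level of 10 hindbrain markers was 554 to 720 CPM (counts scaled to the library total after TMM normalization) across the 12 mice. That of 6 forebrain markers was 8.23 to 14.7 CPM, and that of 6 lumbar Hox genes was 0 to 0.0865 CPM. Xist, which is transcribed from the inactive X chromosome, was at 547 to 970 CPM in the 6 libraries labelled female and at 0.398 to 2.71 CPM in 5 of those labelled male. The library labelled morphine male 6 matched neither sex. Its Xist, at 380 CPM, lay above the other 5 males and below all 6 females. Its Y-linked Ddx3y, at 12.8 CPM, lay below the 118 to 199 CPM of the other 5 males. It lay above the 0.0576 to 0.729 CPM of the 6 females. The cause was not tested. Male and interaction results are given with this library under its label, and many of them, but not all, also without it.

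Collagens are triple helices of 3 chains, and most types are built from a fixed combination of chains. Fibrillar types I, III, and V form the fibers of the meninges, vessel walls, and nerve sheaths, whereas type IV forms the sheet-like network of basement membranes under endothelium and at the glial surface of the brain. Type VI forms beaded filaments between both, the fibril-associated types sit on the surface of fibers, the multiplexins XV and XVIII lie in basement membranes, and the transmembrane types, such as neuronal type XXV, are anchored in the cell surface. In the brain, most fibrillar collagen is made by fibroblasts of the meninges and vessels, and type IV by endothelial and mural cells.

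Promoter windows are shown for a selection of genes. These are the head-to-head pair Col4a1 and Col4a2, whose levels ran together in the 12 mice, and 4 genes that passed the thresholds. Of the latter, Col3a1, Col6a1, and Col6a2 passed in females and Col6a6 in males. The windows of Col4a5, which also passed in females, and of Col24a1 and Col6a5, which passed in males, are not printed. Each window shown runs from 250 bases before to 50 bases after the RefSeq start of the gene on GRCm38.p6, 5′ to 3′ on the gene's own strand. RefSeq gives 2 starts for Col6a2, and the window of the other start (chr10:76623355-76623654), not printed, had 64.3% GC and held GGGCGG 3 times, against 56.7% and 1 time in the window shown. Capitals mark TATAAA on the strand shown, and CCAAT (or ATTGG) and GGGCGG (or CCGCCC) on both strands.
Col4a1 (chr8:11312777-11313076, minus strand): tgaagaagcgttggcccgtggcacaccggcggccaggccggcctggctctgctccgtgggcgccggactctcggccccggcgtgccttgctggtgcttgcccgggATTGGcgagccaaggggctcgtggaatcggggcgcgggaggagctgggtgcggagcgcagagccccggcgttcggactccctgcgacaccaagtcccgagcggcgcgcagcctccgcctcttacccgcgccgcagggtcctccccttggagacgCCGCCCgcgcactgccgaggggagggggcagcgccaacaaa
Col4a2 (chr8:11312555-11312854, plus strand): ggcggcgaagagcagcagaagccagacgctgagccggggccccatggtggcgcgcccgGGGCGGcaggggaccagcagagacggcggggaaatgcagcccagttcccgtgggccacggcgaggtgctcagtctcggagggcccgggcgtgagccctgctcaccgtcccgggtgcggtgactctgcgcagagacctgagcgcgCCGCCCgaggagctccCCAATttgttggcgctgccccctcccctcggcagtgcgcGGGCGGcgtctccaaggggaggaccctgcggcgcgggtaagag
Col3a1 (chr1:45311288-45311587, plus strand): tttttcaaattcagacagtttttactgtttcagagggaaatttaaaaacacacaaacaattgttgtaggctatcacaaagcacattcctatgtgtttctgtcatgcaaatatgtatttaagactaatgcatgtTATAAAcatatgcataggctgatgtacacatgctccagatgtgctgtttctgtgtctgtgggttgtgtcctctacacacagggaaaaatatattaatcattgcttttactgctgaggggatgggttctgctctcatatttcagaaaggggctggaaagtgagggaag
Col6a1 (chr10:76725995-76726294, minus strand): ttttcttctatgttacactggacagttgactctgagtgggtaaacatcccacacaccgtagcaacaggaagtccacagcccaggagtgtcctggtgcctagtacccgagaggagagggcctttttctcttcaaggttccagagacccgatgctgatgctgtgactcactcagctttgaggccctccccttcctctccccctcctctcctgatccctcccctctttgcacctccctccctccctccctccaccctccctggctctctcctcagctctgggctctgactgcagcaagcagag
Col6a2 (chr10:76623581-76623880, minus strand): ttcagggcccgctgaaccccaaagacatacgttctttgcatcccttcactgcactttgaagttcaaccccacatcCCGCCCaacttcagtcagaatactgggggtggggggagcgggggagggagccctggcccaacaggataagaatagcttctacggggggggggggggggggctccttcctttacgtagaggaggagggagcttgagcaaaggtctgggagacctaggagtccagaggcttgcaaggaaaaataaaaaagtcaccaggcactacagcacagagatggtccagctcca
Col6a6 (chr9:105828036-105828335, minus strand): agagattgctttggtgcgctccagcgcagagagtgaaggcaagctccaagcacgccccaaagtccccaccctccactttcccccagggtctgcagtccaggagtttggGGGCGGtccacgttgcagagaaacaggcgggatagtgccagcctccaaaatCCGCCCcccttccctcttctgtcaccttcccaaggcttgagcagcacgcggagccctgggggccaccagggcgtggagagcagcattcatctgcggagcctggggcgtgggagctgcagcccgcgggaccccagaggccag

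The Col4a1 and Col4a2 windows read the same stretch of DNA on opposite strands in part, because their annotated starts lie 21 bases apart. Both were GC rich, at 74% and 73.7%, and held GGGCGG 1 and 3 times. The Col3a1 window, at 37.7% GC, held no GGGCGG and a TATAAA 117 bases before the start. RefSeq windows were found for 35 of the 44 collagen genes, 38 windows in all. GGGCGG was in 23 of these 38 windows (60.5%) and in 35.7% of all 32851 promoter windows, CCAAT was in 13 (34.2%, against 37.4%), and TATAAA was in 5 (13.2%, against 8.32%). The median GC content of the windows was 59.8% for the collagens and 52.7% for all genes.

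Levels were compared between genes as CPM per kb of annotated exon, so the order of the genes depends on the annotated lengths. Chains of type IV, type IX, type XI, and transmembrane type XXV led (the plot of levels by gene). Col4a1, a chain of the common type IV trimer, had the highest level, 12.98 ± 4.15 (SD, n = 12) CPM per kb, and its partner Col4a2 had 9.87 ± 3.40. Between them stood Col9a3, a type IX chain, at 11.3 ± 5.53. Col11a2, a type XI chain of thin fibrils, had 8.92 ± 5.01, and Col25a1, the neuronal transmembrane collagen, had 5.30 ± 0.71. These 5 genes made up 50.0% of the summed collagen level per kb, and the ranges of the first 4 over mice overlapped. The fiber-forming chains Col3a1 and Col1a2 came next, at 4.71 ± 1.78 and 4.45 ± 1.16 CPM per kb, and Col1a1 stood lower, at 2.10 ± 0.80, below Col4a5, Col9a2, Col6a1, and Col5a2. The leading chains of the other types were Col6a1 (type VI) at 3.11 ± 0.68, Col18a1 (multiplexin) at 1.81 ± 0.72, Col8a1 (short-chain network) at 1.35 ± 0.49, and Col26a1 (other) at 0.69 ± 0.23 CPM per kb. The lowest were Col6a5, Col17a1, and Col6a4, at 0.059, 0.044, and 0.038 CPM per kb. The summed level of all 44 collagens ran from 553 CPM in morphine female 3 to 1129 CPM in saline male 2.

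**Figure D1:**
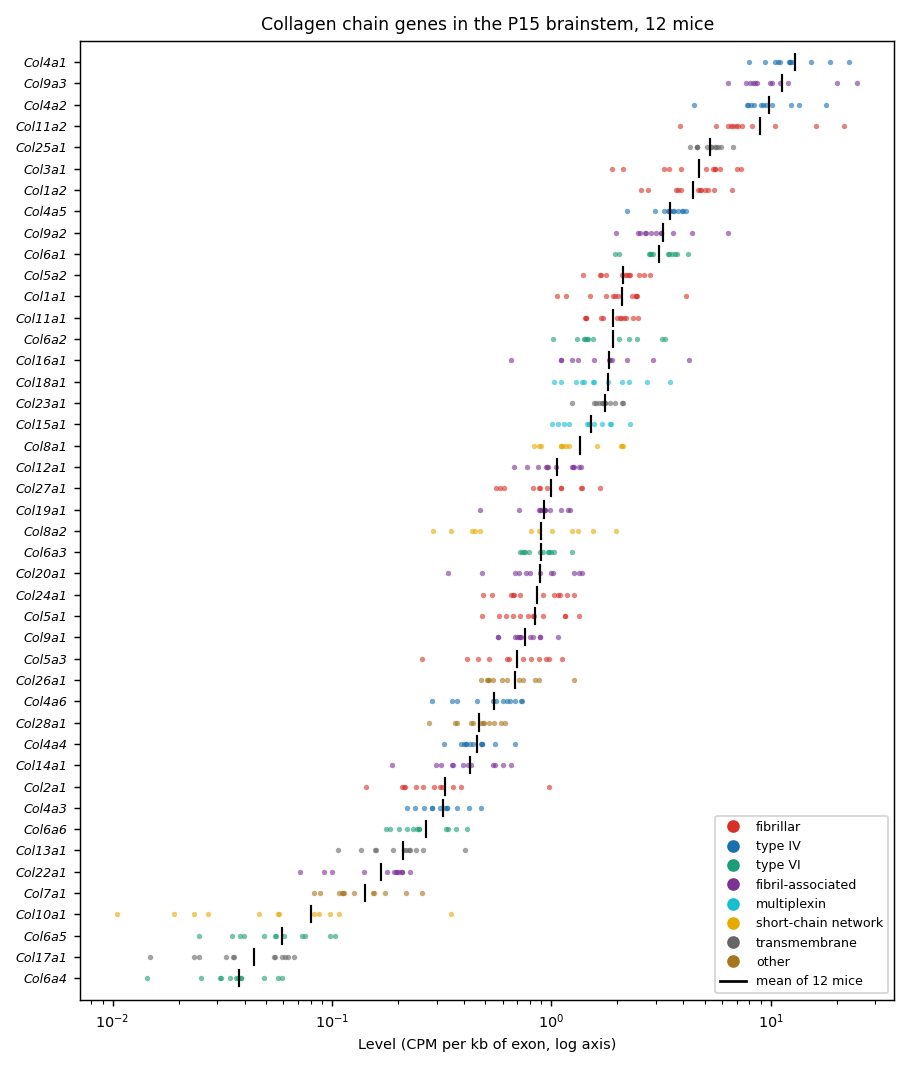
Level of each of the 44 collagen chain genes (CPM per kb of exon, log axis), with a point for each of the 12 mice, colored by collagen type, and a bar for the mean. Col4a1, Col9a3, Col4a2, and Col11a2 lead, and Col6a5, Col17a1, and Col6a4 are the lowest.

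Within the type IV group, the kidney-type chains were scarce, as Col4a3 had 0.32 ± 0.07 and Col4a4 had 0.46 ± 0.09 CPM per kb. The X-linked pair was uneven. Col4a5 had 3.48 ± 0.51 and Col4a6 had 0.55 ± 0.15 CPM per kb, so Col4a5 stood 4.88 to 9.23 times above Col4a6 in single mice. Summed over its 11 genes, the fibrillar group had 0.715 times (morphine female 3) to 1.39 times (saline male 3) the summed level per kb of the 6 type IV genes.

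The saline males differed widely among themselves, and most in the GC-rich chains. Col11a2 was at 111, 148, and 26.5 CPM in saline males 1, 2, and 3. All other mice fell between 38.9 and 71.7 CPM, so saline males 1 and 2 stood above and saline male 3 below every other mouse. Col9a3 was at 77.5, 95.9, and 24.5 CPM in the same 3 mice, against 29.8 to 46.1 CPM elsewhere. Col4a1 was at 139, 171, and 59.8 CPM, against 70.5 to 114 CPM elsewhere. In the other direction, Col25a1, the collagen with the lowest GC content (45.9%), was highest in saline male 3 at 87.7 CPM and at 59.9 and 59.5 CPM in saline males 1 and 2. Over 43 collagens, the deviation of a gene from its median correlated with its exon GC content in saline males 1, 2, and 3 with Spearman's rho of 0.74, 0.85, and -0.74, and with -0.71 in saline female 6 and 0.56 in the library labelled morphine male 6. Over all 18608 genes the same values were 0.66, 0.75, -0.75, -0.61, and 0.66, so the relation was not particular to collagens. Collagen exons had a median GC content of 55.1%, and all genes tested had 49.1%. Over the 43 collagens tested, the log2 fold change of morphine over saline correlated with exon GC content with rho of 0.41 in females and -0.58 in males. Over all genes these values were 0.38 and -0.29. In the interaction of treatment and sex they were -0.57 over 44 collagens and -0.37 over all genes. The treatment comparisons were repeated with offsets fitted for GC content and length, chosen after seeing the data. The number of collagens called with these offsets is given for males and the interaction, but not every gene whose call changed is named.

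**Figure D2:**
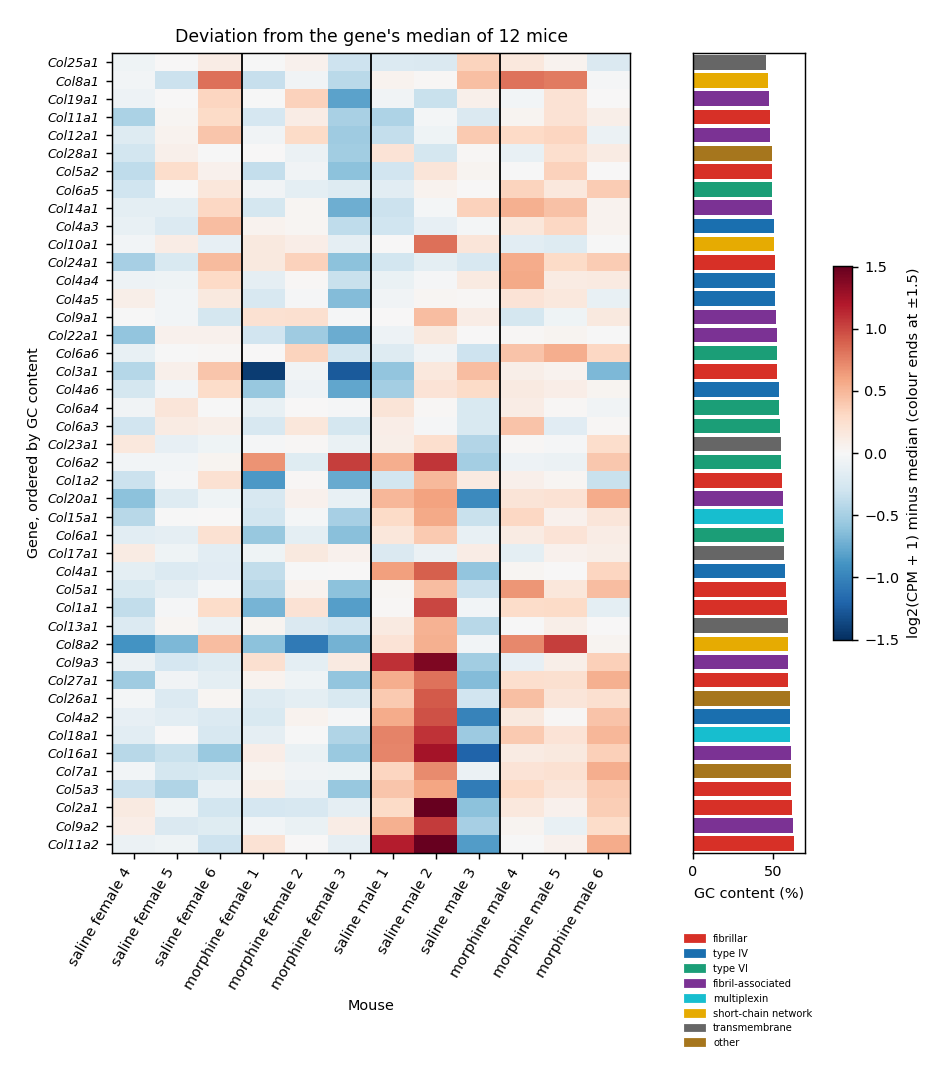
Deviation of each collagen gene in each mouse from the gene's median over the 12 mice (log2 of CPM + 1, color scale ending at ±1.5), with genes ordered from low to high GC content (bars, percent, colored by collagen type). Saline males 1 and 2 are high and saline male 3 is low in the GC-rich genes at the bottom, and Col3a1 is lowest in morphine females 1 and 3.

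For the comparison of treatments, a gene was called when edgeR's quasi-likelihood test gave p below 0.05 before adjustment and a log2 fold change beyond 0.26 in either direction, the thresholds of the study. In the sex-combined comparison, 1 of the 43 collagens that passed the filter on low counts was called, against 1.19% of all genes tested in either direction and 0.607% in its direction. This was Col6a6, an alternative chain of type VI that can stand in for the α3 chain. Its level ran from 1.62 to 2.29 CPM with a median of 2.08 CPM in the 6 saline mice and from 1.69 to 3.77 CPM with a median of 3.08 CPM in the 6 morphine mice. The groups overlapped, since morphine females 1 and 3 lay within the saline range. The log2 fold change was 0.50 ± 0.19 (SE, edgeR, adjusted p = 1.00), and the call was lost without saline male 3 (log2 fold change 0.40) and without morphine female 2 (0.44). Of the 43 collagens, 19 lay above 0 and 24 below, with a median log2 fold change of -0.03 against -0.02 for all genes, of which 42.6% lay above 0.

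In females, 4 of 43 collagens were called, against 1.81% of all genes. Col3a1, Col4a5, and Col6a1 were lower in morphine females, as were 0.884% of all genes, and Col6a2 was higher, as were 0.928%. Col3a1, the type III chain of soft connective tissue, was at 38.2, 54.6, and 69.2 CPM in the saline females and at 18.6, 49.7, and 20.95 CPM in morphine females 1, 2, and 3. Morphine females 1 and 3 were below every other mouse, whereas morphine female 2 lay within the saline range. The log2 fold change was -0.87 ± 0.35 (SE, edgeR, adjusted p = 1.00), and it was -1.46 without morphine female 2. The call was lost with DESeq2 and without morphine female 1 (-0.62), morphine female 3 (-0.67), saline female 6 (-0.63), or saline female 5 (-0.85), so it was kept in 2 of 6 fits that left out a mouse.

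The other fibrillar chains of the same fibers had negative values that did not pass the thresholds. Col1a2 was at 46.9, 58.1, and 69.0 CPM in saline females and at 32.0, 59.5, and 34.3 CPM in morphine females (log2 fold change -0.47 ± 0.23). Col1a1, its partner in type I, was at 9.82, 12.9, and 16.0 CPM against 7.62, 15.3, and 6.93 CPM (-0.38 ± 0.30). In all 3 genes, the same 2 morphine females were low and the third was level with the saline females. Col4a5, the X-linked type IV chain, was at 25.4, 23.1, and 26.4 CPM in saline females and at 19.9, 23.4, and 14.9 CPM in morphine females (log2 fold change -0.37 ± 0.16), again with morphine female 2 inside the saline range. This call was kept in 1 of 6 such fits, without morphine female 2 (-0.53), and the value was -0.21 without morphine female 3 and -0.31 to -0.41 in the other 4. The leading type IV chains Col4a1 and Col4a2 did not pass, with log2 fold changes of 0.06 ± 0.11 and 0.10 ± 0.10.

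Among the type VI chains, Col6a1 and Col6a2 moved apart in females, although both are needed for the type VI trimer. Col6a1 was at 12.2, 12.4, and 16.3 CPM in saline females and at 8.95, 12.4, and 8.59 CPM in morphine females (log2 fold change -0.46 ± 0.18). Col6a2 was at 12.2, 12.2, and 12.9 CPM in saline females and at 20.6, 10.9, and 26.7 CPM in morphine females (0.63 ± 0.26). Morphine females 1 and 3 thus had the lowest Col6a1 of the 12 mice and, with saline male 2, the highest Col6a2. Col6a3, the third chain of the classical trimer, was at 8.65 to 11.9 CPM in saline and 8.81 to 12.2 CPM in morphine females (-0.10 ± 0.18). The Col6a1 call was lost without saline female 6 (-0.29), morphine female 1 (-0.38), or morphine female 3 (-0.37). The Col6a2 call was lost with the GC and length offsets, in the fit of all 12 mice, and without morphine female 3 (0.33), morphine female 1 (0.59), saline female 4 (0.61), or saline female 5 (0.62). The female calls thus depended on single mice. Without morphine female 1, edgeR called 0 collagens and 1.12% of all genes, and without morphine female 2 it called 10, against 3.73% of all genes.

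In males, 3 of 43 collagens were called, all of them higher in morphine males, against 2.99% of all genes in either direction and 1.92% in that direction. Col24a1, the type XXIV fibrillar chain, known from developing bone and cornea, was at 4.98, 5.51, and 5.12 CPM in saline males and at 9.63, 7.84, and 8.39 CPM in morphine males. The groups did not overlap, and every morphine male was above every saline male. The log2 fold change was 0.72 ± 0.17 (SE, edgeR, adjusted p = 1.00).

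Col6a6 was at 1.85, 2.14, and 1.62 CPM in saline males and at 3.39, 3.77, and 3.04 CPM in morphine males. These groups did not overlap either, with a log2 fold change of 0.85 ± 0.21 (edgeR, adjusted p = 1.00). Col6a5, the neighboring alternative type VI chain on chromosome 9, was at 0.358, 0.569, and 0.521 CPM in saline males and at 0.921, 0.688, and 0.974 CPM in morphine males (0.82 ± 0.30). Its values rest on 227 counts over all 12 mice. Col6a4, the third member of this cluster, was at 0.123 to 0.507 CPM in saline and 0.266 to 0.416 CPM in morphine males (0.07 ± 0.50).

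Col24a1 and Col6a6 were called in each of the 6 male fits that left out 1 mouse, with log2 fold changes of 0.63 to 0.84 and 0.79 to 0.95. Without the library labelled morphine male 6 they were 0.73 and 0.92, and Col6a5 was at 0.71 and no longer called. The Col6a5 call was also lost without saline male 1 (0.65) and without morphine male 4 (0.77). In all, 5 collagens did not overlap between saline and morphine males, all higher after morphine, where 5.04% of all genes did so in that direction and 4.06% in the other. The other 2 were Col11a1 (0.35 ± 0.17) and Col4a3 (0.42 ± 0.21), which did not pass the thresholds, nor without morphine male 6 (0.35 and 0.49). Exon GC content was 51.0% in Col24a1, 52.4% in Col6a6, 49.7% in Col6a5, 47.96% in Col11a1, and 50.4% in Col4a3. All 5 lay below the collagen median of 55.1%, and the part of GC content in their separation was not tested. Leaving out the library labelled morphine male 6 gave 5 called collagens, against 2.47% of all genes, with Col8a1, Col8a2, and Col10a1 added. Col10a1 was not tested with that library included, because it did not pass the filter on low counts. It had 6, 50, and 11 counts in saline males 1, 2, and 3 and 2 and 1 in morphine males 4 and 5. The count of male calls depended on saline male 3: without it 17 collagens were called, 8 higher and 9 lower, and 28.6% of all genes. With GC and length offsets 8 were called, 7 of them higher, against 6.98% of all genes, and Col4a2 went from -0.17 ± 0.44 to a called value of 0.27.

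No collagen had a Benjamini-Hochberg adjusted p under 0.05 in the sex-combined, female, male, or interaction comparison with edgeR, nor with DESeq2. Before adjustment, edgeR gave p under 0.05 for 1, 4, 3, and 2 collagens in that order, and for 1.32%, 1.89%, 2.99%, and 2.94% of all genes. Adjusted p under 0.05 arose only under 2 alternatives, with no filter on low counts (3 collagens in females) and without saline male 3 (7 in males and 7 in the interaction).

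**Figure D3:**
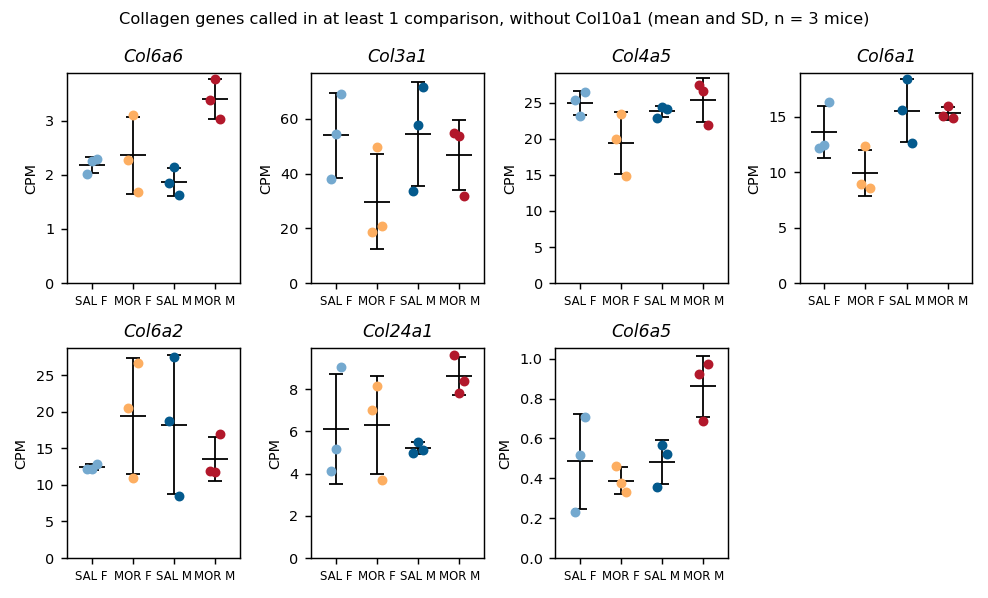
CPM of the 7 collagens called in at least 1 comparison, except the sparse Col10a1, in saline (SAL) and morphine (MOR) females (F) and males (M), with a point per mouse and the mean and SD of 3 mice. Col6a6, Col24a1, and Col6a5 separate the male groups, in Col3a1, Col6a1, and Col6a2 morphine female 2 stands apart from the other 2 morphine females, and in Col4a5 morphine female 3 is the lowest.

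The difference between the sexes was tested by the interaction of treatment and sex, in which 2 of 44 collagens were called, against 2.94% of all genes (1.61% with a larger and 1.33% with a smaller value in males). For Col6a6 the change was larger in males than in females by 0.76 ± 0.33 on the log2 scale (edgeR, adjusted p = 0.985). Saline females had 2.01, 2.25, and 2.29 CPM and morphine females had 2.27, 3.11, and 1.69 CPM, so the female groups overlapped (log2 fold change 0.11 ± 0.26). The interaction call was kept in 4 of 12 fits that left out a mouse, among them that without morphine male 6 (0.83), and the values over the 12 fits were 0.57 to 1.01. It was lost without saline male 1 or 3, saline female 5 or 6, morphine female 1 or 3, or morphine male 4 or 5. Col24a1 did not pass in the interaction (0.70 ± 0.44), and in females its values overlapped, at 4.11, 5.17, and 9.03 CPM in saline and 7.01, 8.16, and 3.71 CPM in morphine females. The other called gene, Col10a1, a short-chain network collagen of growth plate cartilage, had only 1 to 11 counts in 11 mice and 50 in saline male 2, and the interaction (-2.91 ± 1.15) was lost without that mouse (-1.83). It was also lost without saline female 6, morphine female 1 or 2, or morphine male 4 or 5. None of the genes called in females passed in the interaction, where Col3a1 had 0.66 ± 0.55, Col4a5 had 0.47 ± 0.23, Col6a1 had 0.45 ± 0.27, and Col6a2 had -1.05 ± 0.53, so a difference between the sexes was not shown for them. Without morphine male 6, the interaction of Col4a5 (0.57) and Col6a2 (-1.25) passed, as did those of 7 collagens in all, against 3.39% of all genes.

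The median log2 fold change of the 11 fibrillar chains was -0.20 in females and -0.02 in males, that of the 6 type IV chains was -0.24 and 0.07, and that of all 43 collagens was -0.15 and 0.06, where all genes had -0.01 and -0.06. In females, 7 of 11 fibrillar and 4 of 6 type IV chains lay below 0. In males, 5 of 11 fibrillar and 4 of 6 type IV chains lay above 0. Of all genes, 48.2% in females and 37.6% in males lay above 0. The 6 type VI chains had medians of -0.21 and 0.11, and the 9 fibril-associated chains had 0.09 and -0.03, with none called in either sex. The 2 multiplexins, 4 transmembrane, and 3 other chains also had no call. Without morphine male 6, the male medians were -0.02 for fibrillar, 0.12 for type IV, and 0.20 for type VI chains and -0.01 for all collagens.

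**Figure D4:**
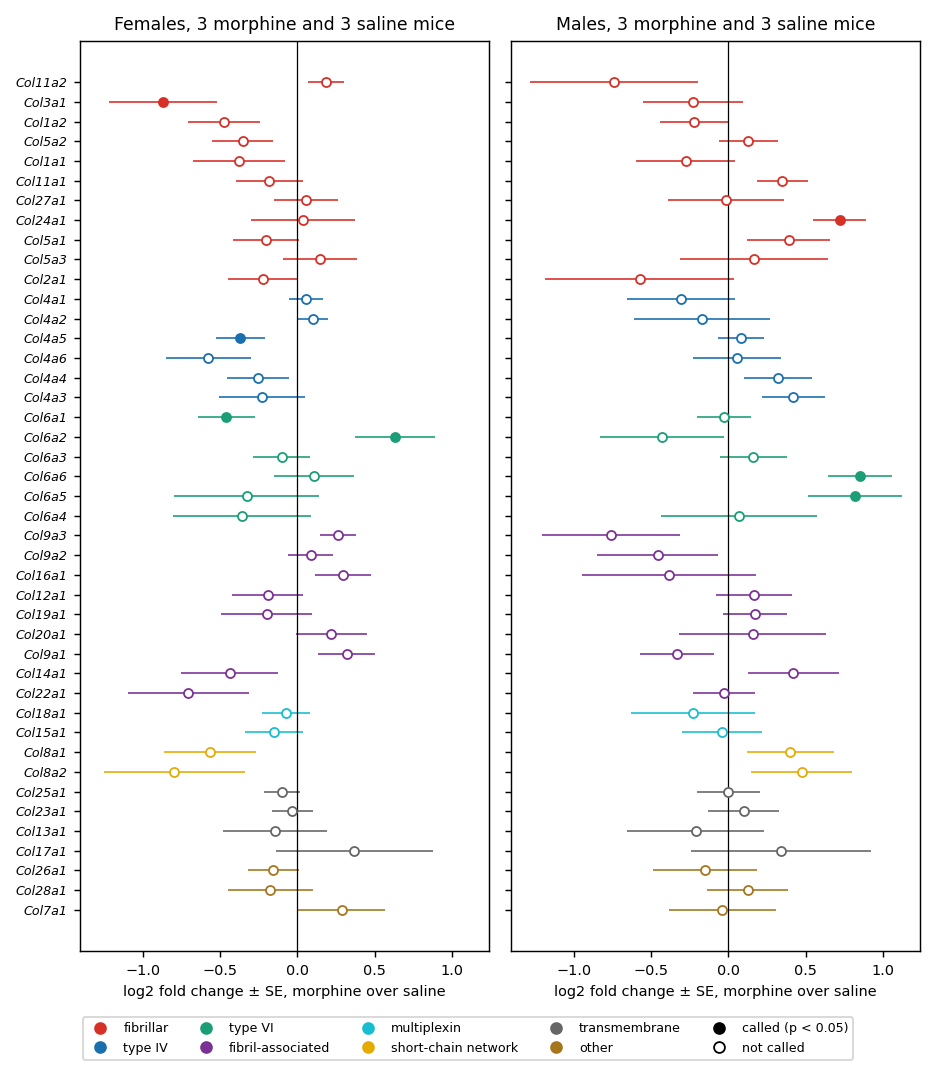
log2 fold change (morphine over saline, points) with its SE (lines) of the 43 collagens tested, in females (left) and males (right), grouped and colored by collagen type. Filled points passed the thresholds, 4 in females and 3 in males, and the SEs of Col11a2, Col9a3, Col4a1, and Col4a2 are wider in males than in females.

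Partner chains were compared across the 12 mice in 13 pairs, with permutation p values (two-sided) adjusted over the 13. Col4a1 and Col4a2 had r = 0.96 (Spearman's rho = 0.97, permutation p = 1e-05, the smallest the permutations can give, adjusted p = 0.00013), r = 0.95 without saline males 1 and 2, and r = 0.99 with group means removed. Col9a2 and Col9a3 of type IX had r = 0.95 (rho = 0.90, adjusted permutation p = 0.00013), and 0.83 without saline males 1 and 2. Col1a1 and Col1a2 had r = 0.93 (rho = 0.85, adjusted permutation p = 0.00013), and 0.89 without saline male 2 and morphine female 3. The adjusted permutation p values of rho were 0.00026, 0.00065, and 0.00373 in the same order. Within the 6 saline and the 6 morphine mice, r was 0.98 and 0.96 for Col4a1 and Col4a2, 0.97 and 0.60 for Col9a2 and Col9a3, and 0.86 and 0.99 for Col1a1 and Col1a2. The ratio of Col1a1 to Col1a2, whose protein ratio in type I collagen is fixed, was 0.369 to 0.619 per kb with a median of 0.464. That of Col4a1 to Col4a2 was 1.21 to 1.78. Both ratios depend on the annotated exon lengths, which were 6563 bases for Col1a1 and 12426 for Col1a2. Before scaling by length, the mean levels of Col1a1 and Col1a2 were 13.8 and 55.3 CPM. The lengths of the transcripts present in the tissue were not determined. Deviations tied to GC content are shared by the chains of these pairs, and their part in the correlations was not tested.

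Other pairs were weaker. Col8a1 and Col8a2 had r = 0.78 (rho = 0.78; 0.73 without saline female 6 and morphine male 4), and Col4a3 and Col4a4, whose annotated starts lie 72 bases apart, had r = 0.73 (rho = 0.73; 0.58 without saline female 6 and morphine female 3). Col4a5 and Col4a6, with starts 1309 bases apart, had r = 0.78 (rho = 0.68), and Col3a1 and Col1a1 had r = 0.77 (rho = 0.67), but both values rested on morphine females 1 and 3, without which they were 0.39 and 0.46. All 4 had adjusted permutation p values of 0.00647 to 0.0130 for r and 0.0135 to 0.0358 for rho. The pairs Col5a1 and Col5a2 (r = 0.58, rho = 0.48), Col6a1 and Col6a3 (0.49 and 0.41), and Col9a1 and Col9a2 (0.49 and 0.37) had adjusted permutation p values of 0.0819, 0.129, and 0.129 for r. Col11a1 and Col11a2, both chains of type XI, had r = -0.09 (rho = 0.03, adjusted permutation p = 0.791), and their exon GC contents were 47.96% and 62.9%. Col4a1 and Col1a1, taken for contrast from different types, had r = 0.52 (rho = 0.35, adjusted permutation p = 0.116).

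Col6a1 and Col6a2 had r = -0.16 over all mice (rho = 0.02, adjusted permutation p = 0.681) and 0.72 without morphine females 1 and 3. The ratio of Col6a1 to Col6a2 per kb was 0.827 and 0.611 in those 2 mice and 1.27 to 2.84 in the other 10. Their exon GC contents were close, at 56.7% and 55.2%. The 2 genes lie on the same strand of chromosome 10, with starts 102538 bases apart. In these 2 mice Col6a1 lay -0.57 and -0.62 from its median over the 12 mice on the log2(CPM + 1) scale, and Col6a2 lay 0.67 and 1.03 from its own. In morphine males 4 and 5 the chains also deviated in opposite directions, by at most 0.20.

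Markers of cell types that make collagen moved with some of these results. A bulk level cannot tell fewer cells of a type from less RNA per cell. The summed level of 16 meningeal fibroblast markers without collagens was 138 and 139 CPM in morphine females 1 and 3 and 166 to 223 CPM in the other 10 mice. In females, 14 of the 15 markers tested lay below 0 and 5 were called lower, among them Aldh1a2 (-0.88 ± 0.19), a retinoic acid synthesis enzyme, and Dcn (-0.76 ± 0.19), a fibril-binding proteoglycan, and none was called higher, where 0.884% of all genes were called lower. The 2 mice with the lowest Col3a1, Col1a1, Col1a2, and Col6a1 were thus those with the lowest meningeal markers. The summed endothelial markers were 407 and 435 CPM in these 2 mice, inside the range of 379 to 513 CPM of all mice. The summed level of 10 mural cell markers was 439 and 428 CPM, inside the range of 396 to 481 CPM of all mice, but 2 of the 9 tested were called lower in females. These were the smooth muscle genes Acta2 (-0.61 ± 0.18), at 6.85 and 6.75 CPM in morphine females 1 and 3 and 10.3 to 21.6 CPM elsewhere, and Myh11 (-0.54 ± 0.17), at 6.18 and 5.54 CPM against 6.56 to 11.8 CPM. The part of meningeal fibroblasts and smooth muscle in the female results was not tested.

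Choroid plexus content varied widely among the mice. The summed level of 10 markers of its epithelium ran from 13.5 CPM in saline female 4 to 871 CPM in morphine male 5. Col8a2 was highest in morphine males 5 and 4, at 8.85 and 6.93 CPM, which had the most choroid plexus RNA (871 and 809 CPM). It was lowest in morphine female 2 and saline female 4, at 1.297 and 1.57 CPM, which had the least (34.1 and 13.5 CPM). Col8a1 was highest, at 16.2 to 16.7 CPM, in saline female 6 and morphine males 4 and 5, and at 6.53 to 12.7 CPM in the other 9. It did not track the markers throughout, as it was at 9.42 and 9.12 CPM in saline males 1 and 2, which had 541 and 452 CPM of them, and at 8.71 CPM in saline female 4. Col10a1, the third chain of the group, had only 1 and 2 counts in morphine males 5 and 4 and 2 in morphine female 3, too few to rank the mice. In males, 6 of the 10 choroid plexus markers were called higher and none lower, against 1.92% of all genes called higher, and without morphine male 6 it was 9 of 10, against 1.75%. In females none was called, although all 10 lay below 0, with a median log2 fold change of -0.75. The log2 fold change of Col8a2 was 0.47 ± 0.33 in males and -0.80 ± 0.46 in females, and that of Col8a1 was 0.40 ± 0.28 and -0.57 ± 0.30, none of which was called. Without morphine male 6, both were called higher in males, at 0.73 ± 0.28 and 0.63 ± 0.24. Both were then also called in the interaction, with changes larger in males by 1.54 ± 0.62 and 1.22 ± 0.43. In that fit 1.77% of all genes were called in this direction. With that library included, the interaction values were 1.28 ± 0.63 and 0.98 ± 0.46 and were not called. The part of choroid plexus tissue in these values, and in the male calls of Col24a1, Col6a5, and Col6a6, was not tested.

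**Figure D5:**
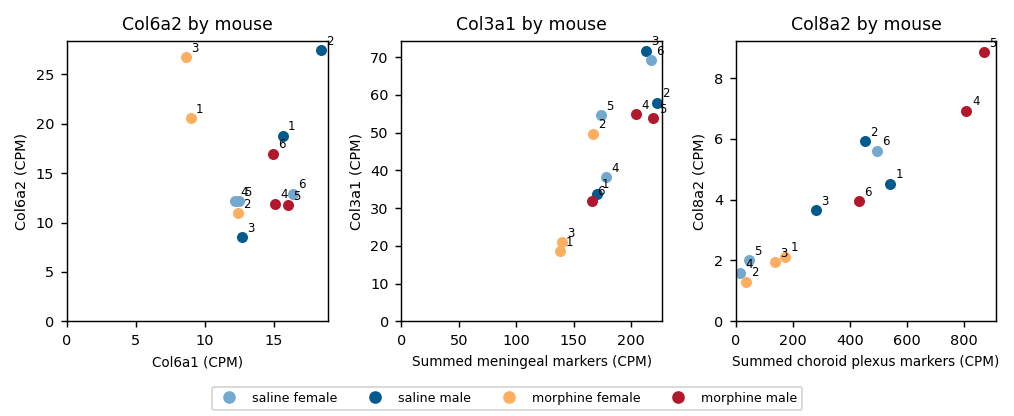
Left, Col6a2 against Col6a1; middle, Col3a1 against the summed level of 16 meningeal fibroblast markers; right, Col8a2 against the summed level of 10 choroid plexus markers, all in CPM, with a point for each of the 12 mice labeled by its replicate number. Morphine females 1 and 3 have the lowest Col6a1 with high Col6a2 and the lowest Col3a1 and meningeal markers, and Col8a2 is highest in morphine males 4 and 5, which have the most choroid plexus RNA.

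The other genes of the collagen pathway were taken from a list of 73 genes for chain modification, chaperoning, propeptide removal, cross-linking, receptors, and binding partners. In females, 5 of 71 tested were called lower, where 0.884% of all genes were, and none higher. These were Lox (-0.81 ± 0.28), which cross-links collagen and elastin, the fibril-binding proteoglycans Dcn, Fmod (-0.61 ± 0.17), and Bgn (-0.34 ± 0.15), and Lama2 (-0.39 ± 0.16), a laminin chain. Lox was at 9.24, 11.2, and 15.3 CPM in saline females and at 6.79, 9.42, and 4.26 CPM in morphine females, so it too was lowest in morphine female 3. Dcn is also on the meningeal list. In males, 2 of 71 were called, both higher, a share near the 1.92% of all genes called higher: Itga10 (0.65 ± 0.25), a collagen-binding integrin chain, and Fn1 (0.39 ± 0.14), the fibronectin gene. Itga10, Fn1, and Lama2 were also called in the interaction, with changes larger in males by 1.36 ± 0.44, 0.73 ± 0.28, and 0.57 ± 0.23, where 1.61% of all genes were called in that direction. Without morphine male 6 all 3 stayed called in the interaction (1.23, 0.78, and 0.59), whereas in males Fn1 stayed called (0.43) and Itga10 did not (0.52). In the sex-combined comparison 1 was called higher (Timp1, an inhibitor of collagenases, 0.50 ± 0.23) and 2 lower (Dcn, -0.49 ± 0.22, and the gelatinase Mmp9, -0.36 ± 0.15), against 1.19% of all genes in either direction. Without morphine male 6, Timp1 stayed called (0.58) and none was called lower. Enzymes and chaperones that act on collagen chains did not pass. None of 15 prolyl and lysyl modification genes and none of 4 chaperone and export genes was called in any comparison by edgeR. None of the 71 or 72 pathway genes tested in a comparison had an adjusted p under 0.05.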

How the data were processed

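Poly-A RNA of 12 brainstems (1 per mouse) was sequenced by the authors as 100 bp single-end reads on 1 lane. The authors used scruff for read preprocessing, Trimmomatic for trimming, STAR for alignment (mm10), and featureCounts for counting over Ensembl GRCm38 exons; versions and the strand setting are not given in the sources used here. The deposited values are whole-number counts per gene with unequal totals (27850565 to 48097947), treated as raw counts although the study calls them normalized. Without strand, reads of overlapping genes on opposite strands cannot be told apart. Col9a3 shares 234 exon bases (6.07% of its exon length) with Tcfl5, and Col4a3 shares 563 (5.65%) with C430014B12Rik. Col4a1 and Col4a2 share 22 exon bases.

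Groups came from the sample labels (treatment, sex, replicate). The main test was the edgeR (4.0.16; R 4.3.3) quasi-likelihood F-test on counts after TMM normalization and filterByExpr, with sex as a covariate (sex-combined), within each sex, and for the interaction. Benjamini-Hochberg adjustment ran over all genes tested in a comparison. Of the 44 collagens, 43 passed the filter in the first 3 comparisons and 44 in the interaction, and Col10a1 did not pass within a sex. Single-mouse CPM and group means used the TMM factors of the 12 libraries. Correlations used log2(CPM + 1) and 100000 permutations. Positions, exon lengths, and GC contents came from GENCODE M21 on GRCm38, in which all 55418 symbols were found and 115 stood for more than 1 gene (none of them a collagen). Promoter sequences came from RefSeq. With 3 mice per group, p values rest on few mice.

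Genes named are all collagens called in any comparison, the leading gene of each type, both genes of 13 chain pairs, and of the other lists the called genes (at most 3 per list and comparison) and sums. The deviating chains Col11a2 and Col9a3 were singled out after their values were seen. The values of a gene on the marker lists, and of the list that holds it, are not reported here. The members, lists, and pairs were chosen with earlier results of these data known. Alternatives were exactTest, DESeq2 1.42.0, its size factors, scaling by total counts, no filter, at least 10 counts in every library, no sex covariate, the replicate number as a block, the fit of all mice, and leaving out each mouse, and loess offsets (span 0.5) for GC content and length were added after seeing the data.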

Additional observations from a re-analysis of the deposited data

Results flagged for a closer look

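Some collagen values stood apart from the other mice of their treatment, by the gap to the nearest mouse relative to the range (Dixon's test, 6 mice). In saline male 2, Col1a1 was at 27.0 CPM, Col2a1, a cartilage collagen, at 9.06 CPM, and Col10a1 at 1.09 CPM, each the highest of the saline mice. Saline female 6 had the highest Col24a1 (9.03 CPM) and Col4a3 (4.76 CPM) of the saline mice, and saline female 4 had the lowest Col22a1 (0.845 CPM). The library labelled morphine male 6 had the highest Col23a1 (12.2 CPM) of the morphine mice. Of 88 sets of 6 mice tested, 7 stood out, and chance gives about 1 in 20. Saline male 2 also had 47.1 CPM of 11 skeletal muscle markers, where the other mice had 2.36 to 8.36 CPM, and its part in the collagen values was not tested.

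Before adjustment, the change after morphine passed the thresholds in the interaction test for Col6a6 and Col10a1. For Col6a6 it was larger in males by 0.76 on the log2 scale, a call lost in most fits that left out a mouse. For Col10a1 the value was -2.91, which rests on 50 counts in saline male 2. Both had an adjusted p of 0.985 (edgeR).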

How the results depend on the processing

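Of the recomputed medians of the collagen types, 649 stayed within the spread between mice and 21 moved. The number of collagens called was less stable, and so was the share of all genes called, given in parentheses. In the sex-combined comparison the count of 1 (1.19%) became 3 (2.01%) with no filter on low counts and 1 to 4 when single mice were left out (4 without saline male 3, 2.42%). In females the count of 4 (1.81%) became 12 (3.15%) with no filter and 0 (1.12%) to 10 (3.73%) without single mice (9 without saline female 4, 7.95%). In males the count of 3 (2.99%) became 5 (4.44%) with scaling by total counts, 8 (6.98%) with GC and length offsets, and 2 (1.36%) to 17 (28.6%) without single mice (5 without the library labelled morphine male 6, 2.47%). In the interaction the count of 2 (2.94%) became 7 (3.48%) with DESeq2, 7 (3.68%) with total counts, 6 (4.44%) with no filter, 1 (2.57%) with at least 10 counts in every library, 9 (6.12%) with offsets, and 0 to 13 without single mice (13 without saline male 3, 24.1%; 12 without morphine female 2, 4.41%; 8 without saline female 4, 4.89%; 7 without morphine male 6, 3.39%; and 0 without saline female 6, morphine female 1, morphine male 4, or morphine male 5, 1.49% to 2.31%). By direction, the female calls were 1 higher and 3 lower, and 2 and 2 with total counts, and the interaction calls were 1 and 1, and 6 and 1. Col4a2 in males reversed, from -0.17 to 0.27 with offsets. The cause of these changes was not tested. The correlated pairs stayed at 7 with a pseudocount of 0.1 and became 8 with total counts.

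With the replicate number as a block, 2 collagens were called in the sex-combined comparison (Col1a2 lower and Col6a6 higher). The numbers share no stated animal or litter, and same-numbered mice deviated together with correlations of -0.58 to 0.23, so no pairing was used.

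Collagens with few counts, such as Col6a5, Col6a4, Col17a1, and Col10a1, allow only large differences to be seen, and 3 mice per group and sex limit every comparison.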
